A study of Rattus norvegicus with 18 samples.

Results

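The genes described are 10 rat genes of the extracellular matrix other than collagens, 8 of which encode glycoproteins or elastic fibre proteins (Fn1, Tnc, Postn, Eln, Fbn1, Sparc, Thbs1 and Thbs2) and 2 of which encode lysyl oxidases (Lox and Loxl1). They were chosen by symbol as a family, and all 10 were found among the 13188 genes of the expression table. RNA-seq was done in 18 libraries of HO15.19 cells, a Rat1 rat fibroblast line in which both copies of myc are disrupted (myc-/-), so every library lacks functional endogenous myc. There were 6 groups of 3 libraries. The myc-/- cells were either not transfected or transfected with a control siRNA (siCtrl). The same cells expressing human MYC (myc-/- + MYC) were not transfected, or received siCtrl or 1 of 2 siRNAs, siAHR-2 and siAHR-5, that target the aryl hydrocarbon receptor. Cells grew in 10% serum, and siRNA was used at 40 nM for 48 h. Human MYC came from a virus with an exogenous promoter in stably infected cells, and whether those cells are a clone or a pool is not given in the sources used here. Per the paper, the myc-/- cells of its RNA-seq expressed vector. The methods of the study say in general that experiments were repeated and held technical replicates, but the sources used here do not say whether the libraries of a group came from separate cultures, so the p-values below measure the spread between these libraries, which may be technical.

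Fibroblasts secrete these proteins and assemble them outside the cell. Fibronectin forms the fibrils on which other matrix is built, matricellular proteins such as tenascin-C, periostin, SPARC and the thrombospondins tune how cells attach to it, and tropoelastin is laid onto microfibrils of fibrillin and cross-linked by lysyl oxidases. Oncogenic transformation of fibroblasts has long been known to lower surface fibronectin. MYC is a transcription factor that binds E-box sequences with its partner MAX, and the aryl hydrocarbon receptor (AHR) is a ligand-activated transcription factor that is also a helix-loop-helix protein.

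Promoter sequences are shown for 4 members picked after their values were seen because they differed most in how they moved (Tnc lower in both sets, Postn higher in 1, Sparc and Thbs1 unlike between sets and siRNAs), so that the start of each gene can be read beside its values. A RefSeq table of the GRCr8 assembly held an entry for 6 of the 10 members, and none for Fn1, Eln, Thbs2 and Lox. Each line runs from 250 bases before to 30 bases after the start of the gene, 5′ to 3′ on the strand of the gene, and capitals mark matches to any of 5 motifs searched on both strands. Tnc lies at chr5:82476102-82476381 on the minus strand and Sparc at chr10:40038787-40039066 on the minus strand. Thbs1 lies at chr3:125510000-125510279 on the plus strand and Postn at chr2:140677811-140678090 on the plus strand.
Tnc: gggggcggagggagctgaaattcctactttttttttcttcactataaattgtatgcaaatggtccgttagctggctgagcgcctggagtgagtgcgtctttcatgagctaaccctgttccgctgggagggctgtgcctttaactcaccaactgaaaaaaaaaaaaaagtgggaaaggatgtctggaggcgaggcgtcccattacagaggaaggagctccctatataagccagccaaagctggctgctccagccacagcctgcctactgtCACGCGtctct
Sparc: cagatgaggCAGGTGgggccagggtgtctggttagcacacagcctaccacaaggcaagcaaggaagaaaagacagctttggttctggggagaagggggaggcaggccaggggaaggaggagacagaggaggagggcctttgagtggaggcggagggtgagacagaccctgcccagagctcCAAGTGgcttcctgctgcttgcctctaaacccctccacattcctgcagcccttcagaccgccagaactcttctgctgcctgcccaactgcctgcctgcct
Thbs1: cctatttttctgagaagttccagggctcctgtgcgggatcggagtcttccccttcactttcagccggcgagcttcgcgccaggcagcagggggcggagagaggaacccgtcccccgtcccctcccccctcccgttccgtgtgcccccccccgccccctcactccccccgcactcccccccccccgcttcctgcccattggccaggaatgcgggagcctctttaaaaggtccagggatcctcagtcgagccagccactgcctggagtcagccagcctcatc
Postn: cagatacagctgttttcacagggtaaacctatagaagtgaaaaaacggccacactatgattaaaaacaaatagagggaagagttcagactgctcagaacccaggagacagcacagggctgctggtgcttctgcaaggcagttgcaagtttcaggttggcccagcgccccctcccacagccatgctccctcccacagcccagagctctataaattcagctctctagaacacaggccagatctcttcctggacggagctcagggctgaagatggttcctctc
The windows searched were 20 bases longer at the 3′ end than those printed. The canonical E-box CACGTG was in 6.42% of all 33469 promoters of that table and in 0 of the 6 member promoters. The variant CACGCG was in 8.50% of all promoters and in that of Tnc, starting 19 bases after the gene start, where it overlaps on the other strand the core GCGTG that AHR is known to bind, itself present in 29.7% of promoters. The variants CAAGTG and CACCTG were in 14.1% and 18.8% of all promoters and in that of Sparc, starting 70 and 241 bases before the gene start, the latter on the opposite strand. The promoters of Thbs1, Postn, Fbn1 and Loxl1 held none of these letters in this window. A match is a description of the sequence and not a measured binding site.

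The deposited values are on a log2 scale, and they fell into 2 sets of libraries on different scales, which were therefore never compared with each other by level. Folds below are taken from differences of these values, whose transformation is not given in the sources used here. Of these, 6 libraries (myc-/- + MYC with myc-/- siCtrl as its control) form 1 set, called the set of 6, and the remaining 4 groups form the set of 12. MYC was compared within each set, so the transfection changes together with MYC and cannot be told apart from it: in the set of 6 the cells without MYC were the transfected ones, and in the set of 12 they were not transfected while the MYC-expressing cells received siCtrl. The rat Myc gene was listed at 9.16 to 9.47 in myc-/- siCtrl against 8.01 to 8.08 in myc-/- + MYC, and at 10.8 to 10.9 in myc-/- against 8.16 to 8.27 in myc-/- + MYC siCtrl. Reads of the human MYC transgene need not fall on the rat gene, and transcripts of a disrupted gene can still be counted, so these values do not check the labels. Ahr was at 12.4 to 12.5 in myc-/- siCtrl against 12.9 to 13.03 in myc-/- + MYC (log2FC 0.52, adjusted p = 8.33e-07, under the fold cutoff), and at 11.7 to 12.01 in myc-/- against 13.2 to 13.3 in myc-/- + MYC siCtrl (log2FC 1.40, adjusted p = 4.42e-05). With siRNA against it, Ahr was at 11.97 to 12.03 in the siAHR-2 libraries and at 11.8 to 11.9 in the siAHR-5 libraries, and each siRNA group lay below its control without overlap.

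1 library stood apart before any comparison was made. Replicate 2 of myc-/- in the set of 12 was lower by more than 0.3 on the log2 scale than both other libraries of its group in 691 genes, or 5.24% of all genes, where no other library exceeded 0.296%. These genes include 4 members, Fn1, Tnc, Fbn1 and Lox. Without that library the members gave the same counts in the set of 12, 9 lower and 0 higher with MYC, and the log2FC is given beside the main value for those 4. The read depth of the libraries is unknown, because the values hold no counts.

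**Figure D1:**
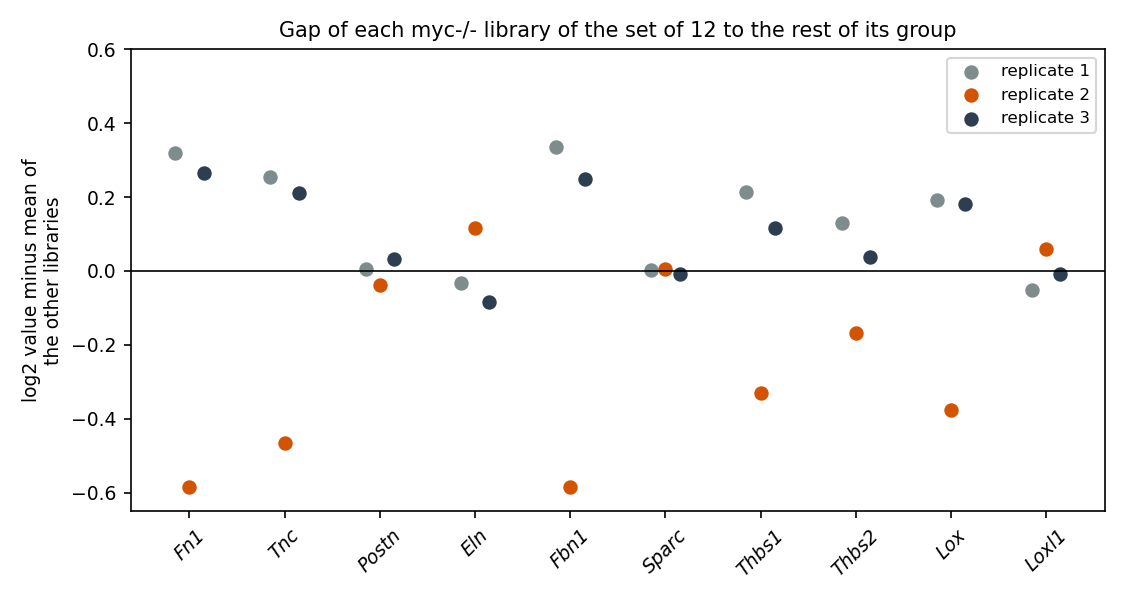
Log2 value of each of the 3 myc-/- libraries of the set of 12 minus the mean of the other libraries of that group (y axis), for the 10 members (x axis). Points are libraries, coloured by replicate. Replicate 2 is the lowest library for 7 members, with the widest gaps for Fn1, Tnc, Fbn1 and Lox, and is not the lowest for Eln, Sparc and Loxl1.

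All 10 fibroblast markers examined were listed, with Vim at 18.3 to 19.7 and Pdgfra at 13.1 to 14.5 across the 18 libraries, although Col1a2, which encodes a chain of type I collagen, was listed at only 3.64 to 4.13. Past the cutoffs given below, 14.3% of all genes were lower and 12.5% higher with MYC in the set of 6. In the set of 12, 14.7% were lower and 10.8% higher. Of the 10 fibroblast markers, 4 were lower and 1 higher in the set of 6, and 6 were lower and 0 higher in the set of 12. Without overlap between groups, 5 fibroblast markers were lower and 4 higher in the set of 6, and 9 lower and 0 higher in the set of 12. Their summed level on the log2 scale was 20.1 in all myc-/- siCtrl libraries against 19.5 to 19.7 in myc-/- + MYC, and 21.5 to 21.6 in myc-/- against 19.6 to 19.7 in myc-/- + MYC siCtrl. Genes of the contractile, smooth muscle-like programme, which fibroblasts also use, were examined as well. Of these, 5 of 6 were lower with MYC in the set of 6 and 6 of 6 in the set of 12. Their summed level was 14.7 in all myc-/- siCtrl libraries against 13 to 13.2 in myc-/- + MYC, and 17.9 to 18.1 in myc-/- against 13.6 to 13.7 in myc-/- + MYC siCtrl. Of 5 epithelial markers measured, Epcam (1.22 to 2.42) and Cdh1 (3.61 to 4.31) were low in every library, while Krt8 reached 9.05, Krt19 7.73 and Cldn4 6.93, and 1 was lower and 1 higher with MYC in the set of 6 and 1 higher in the set of 12. Of 5 leukocyte markers, Ptprc (2.84 to 4.65) and Itgam (1.99 to 2.73) were low, while Cd14 was at 9.91 to 11.4 and Cd68 at 6.76 to 7.55, and 1 was lower with MYC in each set. Of 5 endothelial markers, Vwf was highest, at 6.85 to 10.2, Tek reached 9.20 and Kdr was lowest, at 0.937 to 5.51, and 1 was lower and 1 higher in the set of 6 and 1 lower in the set of 12. The summed endothelial level was 9.97 to 10.03 in myc-/- siCtrl against 9.06 to 9.20 in myc-/- + MYC, and 10.6 to 10.8 in myc-/- against 9.75 to 9.84 in myc-/- + MYC siCtrl. The summed epithelial level was 8.69 to 8.70 in myc-/- siCtrl against 8.85 to 9.004 in myc-/- + MYC. It was 7.89 to 8.03 in myc-/- against 8.83 to 9.16 in myc-/- + MYC siCtrl, so this sum was higher with MYC. The list as a whole was not shifted alike: the median log2FC of its 5 genes was -0.010 with 6 libraries and 0.012 within the larger set. A negative log2FC was found for 3 of the 5 genes in the former and for 1 in the latter. The summed leukocyte level was lower, at 11.4 to 11.5 against 10.5 to 10.7 in the set of 6 and at 10.9 to 10.99 against 10.2 to 10.4 in the set of 12. The part of these lists in the results was not tested, and in bulk RNA fewer cells of a kind and less RNA per cell cannot be told apart.

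The first question was how expression of human MYC in cells without myc changed these matrix genes. MYC-expressing cells had lower levels of most of them. In the set of 6, 7 of the 10 members were lower past the cutoffs (a fold of at least 1.5 and an adjusted p of at most 0.01), 1 was higher (Postn) and 2 did not pass (Fbn1 and Sparc). In the set of 12, 9 were lower, 0 were higher and Postn alone did not pass. Across all genes, 14.3% were lower and 12.5% higher in the set of 6, and 14.7% lower and 10.8% higher in the set of 12. With quantile normalization more genes were called higher than lower, 1799 of 3483 in the set of 6 and 1796 of 3456 in the set of 12. After centring each library on its median, 1492 of 3538 calls were higher in the set of 6 and 1603 of 3394 in the set of 12. The median log2 fold change (log2FC) of the members was -1.31 and -2.02 in these sets, against -0.0038 and -0.00014 for all genes. In the set of 6 the 2 groups of 3 libraries did not overlap for 9 members, where 78.8% of all genes had no overlap, and in the set of 12 for all 10, where 70.5% had none. The same 7 members were lower in both sets (Fn1, Tnc, Eln, Thbs1, Thbs2, Lox and Loxl1), against 8.91% of all genes.

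**Figure D2:**
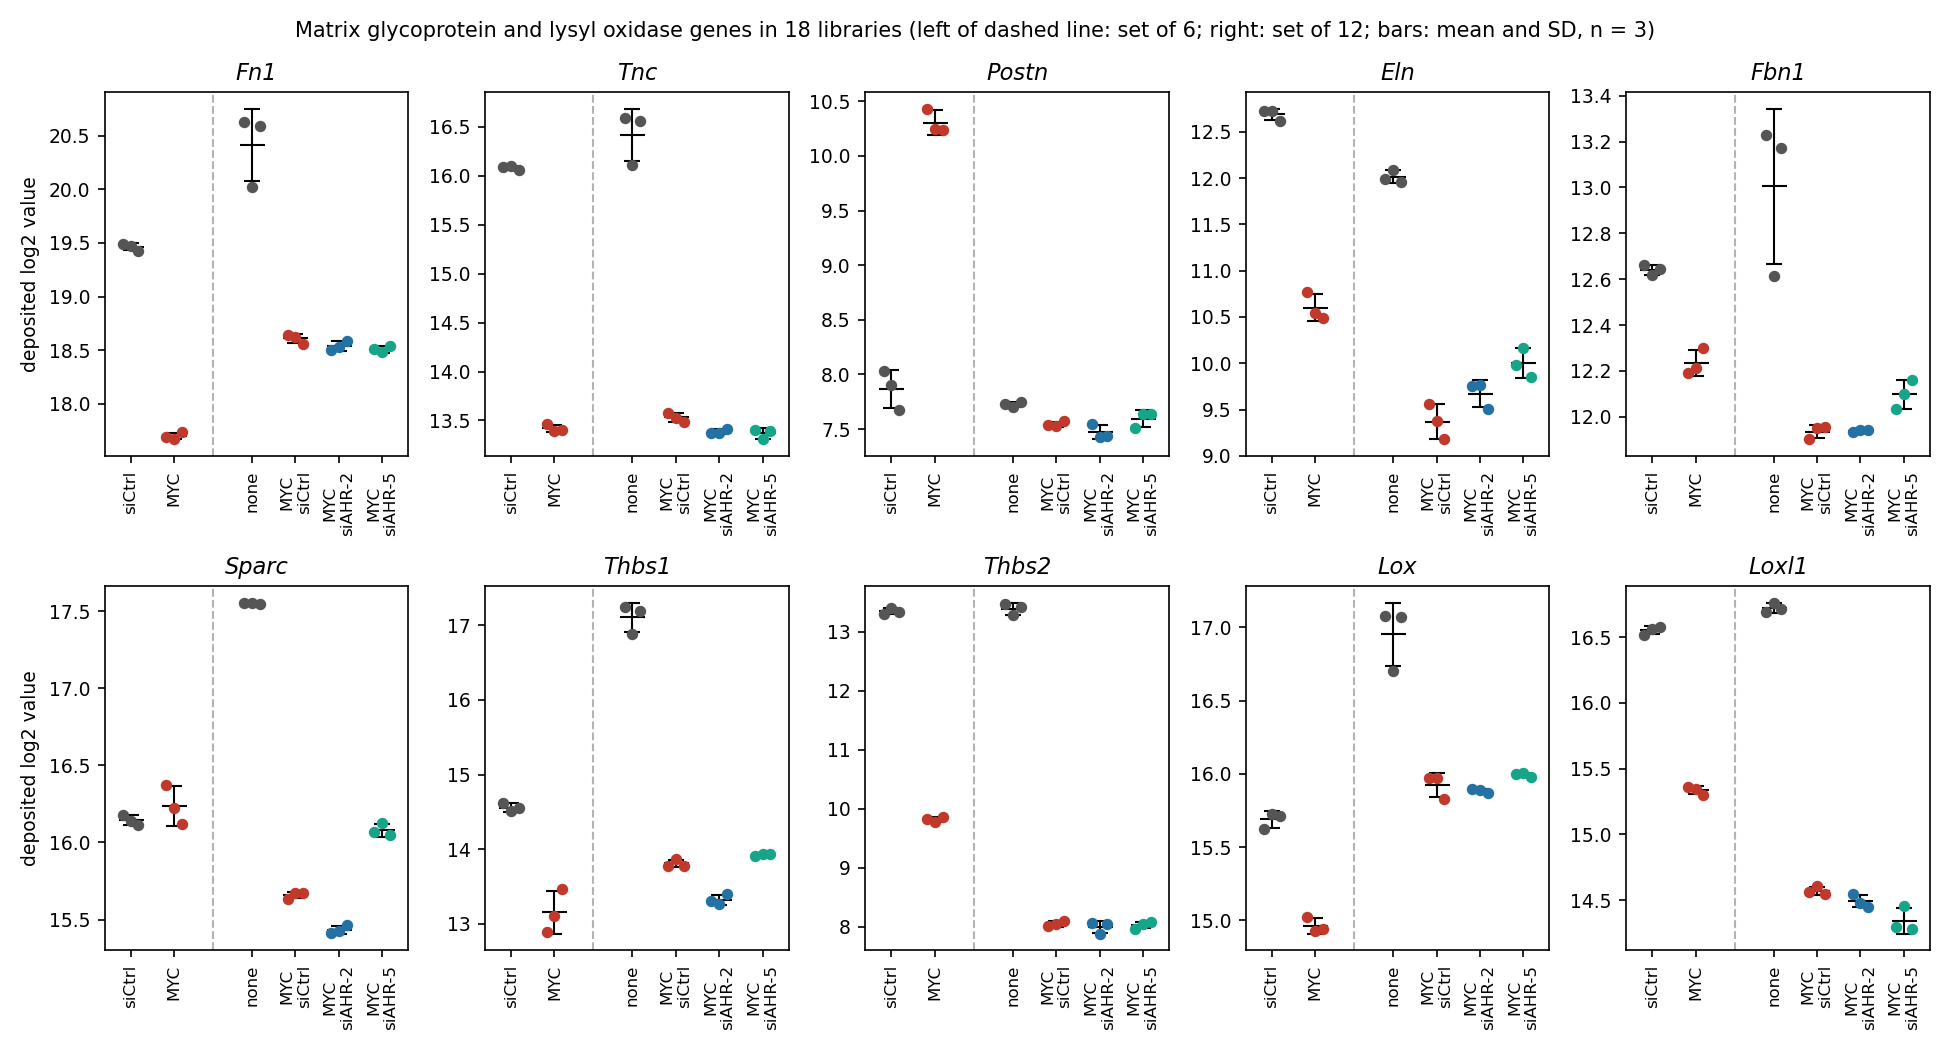
Deposited log2 value (y axis, a scale of its own for each gene) of the 10 members in the 18 libraries, by group (x axis), with the set of 6 left and the set of 12 right of the dashed line. Points are libraries and bars the mean and SD of 3. The MYC-expressing libraries sit below the myc-/- libraries of their set for 8 members in both sets, and Postn sits above in the set of 6 with values of 10.2 to 10.4.

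Fn1 encodes fibronectin, the adhesive glycoprotein that integrins bind and assemble into fibrils. Its log2 values were 19.49, 19.47 and 19.43 in the myc-/- siCtrl libraries and 17.69, 17.67 and 17.73 in the myc-/- + MYC libraries of the set of 6. Fn1 in the set of 12 was at 20.63, 20.02 and 20.59 in myc-/- and 18.64, 18.62 and 18.56 in myc-/- + MYC siCtrl. Every MYC-expressing library lay below every library without MYC, and the second myc-/- library was the low value of its group. The log2FC was -1.76 (SE 0.0326, adjusted p = 2.66e-12), or 3.40-fold lower, in the set of 6. The log2FC in the set of 12 was -1.80 (SE 0.169, adjusted p = 1.89e-04), or 3.49-fold lower, and -2.0 (adjusted p = 3.39e-06) without myc-/- replicate 2. The difference between the 2 log2FC values was -0.041 (95% confidence interval -0.38 to 0.30).

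Tnc encodes tenascin-C, a glycoprotein that interferes with the attachment of cells to fibronectin and is made in wounds and tumour stroma. Tnc in the set of 6 was at 16.09, 16.10 and 16.06 without MYC and at 13.46, 13.40 and 13.41 with MYC. Tnc in the set of 12 was at 16.59, 16.11 and 16.56 without MYC and at 13.57, 13.53 and 13.49 with MYC. The groups were far apart in both sets, and the spread within a group was widest in myc-/-, through replicate 2. Tnc was 6.33-fold lower with MYC in the set of 6 (log2FC -2.66, SE 0.0291, adjusted p = 8.70e-14). It was 7.40-fold lower in the set of 12 (log2FC -2.89, SE 0.132, adjusted p = 9.84e-06), and the log2FC was -3.04 without myc-/- replicate 2.

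Postn encodes periostin, a matricellular protein that binds fibronectin, tenascin-C and collagen and helps to activate lysyl oxidase. It was the exception in direction. Postn in the set of 6 was at 8.03, 7.90 and 7.68 without MYC and at 10.43, 10.24 and 10.23 with MYC, a rise of 5.40-fold (log2FC 2.43, SE 0.0909, adjusted p = 6.42e-10). Postn in the set of 12 was at 7.73, 7.70 and 7.75 without MYC and at 7.53, 7.53 and 7.57 with MYC. The groups did not overlap there, but they were close, with a log2FC of -0.18 (95% confidence interval -0.29 to -0.07, adjusted p = 0.0114), which passed neither cutoff. The high values were those of the untransfected MYC-expressing cells.

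Thbs2 encodes thrombospondin-2, a matricellular inhibitor of angiogenesis made mainly by fibroblasts. It had the lowest log2FC of the 10 members in both sets. Its values were 13.31, 13.41 and 13.34 without MYC and 9.83, 9.77 and 9.86 with MYC in the set of 6. Thbs2 in the set of 12 was at 13.48, 13.28 and 13.42 without MYC and 8.002, 8.04 and 8.09 with MYC. No gene among the members separated the groups further. Thbs2 was 11.6-fold lower with MYC in the set of 6 (log2FC -3.53, SE 0.0420, adjusted p = 1.53e-13) and 40.7-fold lower in the set of 12 (log2FC -5.35, SE 0.0628, adjusted p = 1.21e-07). Counted from the lowest log2FC, it ranked 45 of 13188 genes in the set of 6, and its rank was 7 within the larger set.

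Thbs1 encodes thrombospondin-1, which likewise limits angiogenesis and can release active TGF-beta from its latent form. Thbs1 in the set of 6 was at 14.62, 14.50 and 14.55 without MYC and at 12.89, 13.10 and 13.46 with MYC. Thbs1 in the set of 12 was at 17.25, 16.89 and 17.19 without MYC and at 13.78, 13.87 and 13.78 with MYC. The MYC-expressing libraries of the set of 6 varied more among themselves for Thbs1 than for the other members, with an SD of 0.289, yet none reached the control values. Thbs1 was 2.65-fold lower in the set of 6 (log2FC -1.40, SE 0.108, adjusted p = 2.94e-07) and 9.87-fold lower in the set of 12 (log2FC -3.30, SE 0.0984, adjusted p = 1.95e-06).

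Sparc encodes SPARC (osteonectin), a calcium- and collagen-binding protein with counter-adhesive action. The sets gave unlike results for it. Sparc in the set of 6 was at 16.18, 16.14 and 16.11 without MYC and at 16.38, 16.22 and 16.12 with MYC, so the groups overlapped. Sparc in the set of 12 was at 17.55, 17.55 and 17.54 without MYC and at 15.64, 15.67 and 15.67 with MYC, well apart. The log2FC was 0.095 (95% confidence interval -0.02 to 0.21, adjusted p = 0.129) in the set of 6. The log2FC in the set of 12 was -1.89 (SE 0.0266, adjusted p = 1.74e-07), or 3.70-fold lower.

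Eln encodes tropoelastin, the soluble precursor of elastin. Eln in the set of 6 was at 12.73, 12.72 and 12.62 without MYC and at 10.76, 10.54 and 10.49 with MYC. Eln in the set of 12 was at 11.99, 12.09 and 11.96 without MYC and at 9.56, 9.37 and 9.18 with MYC. All MYC-expressing libraries were lower, and myc-/- replicate 2 was here the highest of its group rather than the lowest. Eln was 4.25-fold lower in the set of 6 (log2FC -2.09, SE 0.0652, adjusted p = 1.50e-10) and 6.25-fold lower in the set of 12 (log2FC -2.64, SE 0.104, adjusted p = 5.30e-06).

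Fbn1 encodes fibrillin-1, the main protein of the microfibrils that carry elastin and hold latent TGF-beta. It was lower in every MYC-expressing library of each set, but by little in the set of 6. Fbn1 in the set of 6 was at 12.66, 12.62 and 12.64 without MYC and at 12.19, 12.21 and 12.30 with MYC, a log2FC of -0.41 (95% confidence interval -0.49 to -0.32, adjusted p = 1.27e-06) that did not reach the fold cutoff. Fbn1 in the set of 12 was at 13.23, 12.62 and 13.17 without MYC and at 11.90, 11.95 and 11.95 with MYC, and replicate 2 of myc-/- was again the low value. There Fbn1 was 2.1-fold lower (log2FC -1.07, SE 0.165, adjusted p = 0.00173). The log2FC was -1.26 (adjusted p = 7.87e-06) without that library, while the adjusted p was 0.0104 and 0.0101, just past the cutoff of 0.01, without replicate 1 or replicate 3 of myc-/- + MYC siCtrl.

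Lox and Loxl1 encode lysyl oxidase and lysyl oxidase-like 1, the copper enzymes that oxidise lysines of collagen and elastin so that the chains cross-link. Lox was at 15.63, 15.73 and 15.72 without MYC and at 15.02, 14.92 and 14.94 with MYC in the set of 6. Lox in the set of 12 was at 17.08, 16.70 and 17.07 without MYC and at 15.97, 15.97 and 15.83 with MYC. It was lower in every MYC-expressing library of each set, by a modest amount. The log2FC of Lox was -0.73 (SE 0.0371, adjusted p = 8.64e-09) in the set of 6 and -1.03 (SE 0.114, adjusted p = 3.93e-04) in the set of 12, or -1.15 without myc-/- replicate 2. With quantile normalization the log2FC in the set of 6 was -0.52, short of the fold cutoff.

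Loxl1, which is needed for the upkeep of elastic fibres, was at 16.52, 16.56 and 16.58 without MYC and at 15.36, 15.35 and 15.30 with MYC in the set of 6. Loxl1 in the set of 12 was at 16.69, 16.76 and 16.71 without MYC and at 14.56, 14.60 and 14.55 with MYC. Its groups were tight and did not overlap. Loxl1 was 2.32-fold lower in the set of 6 (log2FC -1.22, SE 0.0294, adjusted p = 2.06e-11) and 4.44-fold lower in the set of 12 (log2FC -2.15, SE 0.0316, adjusted p = 1.86e-07).

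**Figure D3:**
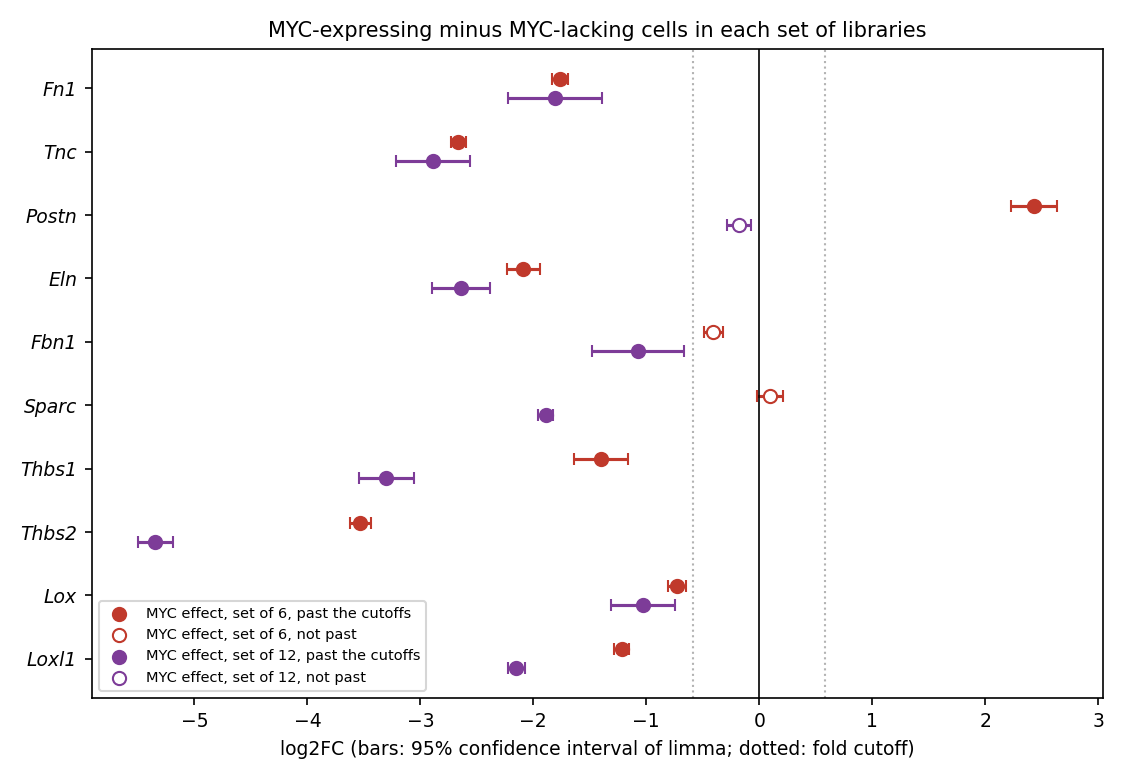
Log2FC of MYC-expressing minus MYC-lacking cells (x axis) for the 10 members (y axis), in the set of 6 (red) and the set of 12 (purple). Bars are 95% confidence intervals of limma, filled points passed both cutoffs, open points did not, and dotted lines mark the fold cutoff. Points lie left of 0 in both sets for 8 members, and Thbs2 is farthest left at -3.53 and -5.35.

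Whether a member answered differently to MYC in the 2 sets was tested directly, as the log2FC of the set of 12 minus that of the set of 6 in a fit of 12 libraries. The difference passed the cutoffs for 6 members, each with the lower log2FC in the set of 12, against 16.5% of all genes in either direction. Postn differed by -2.62 (SE 0.117, adjusted p = 1.12e-10), between a rise and no call. Sparc differed by -1.98 (SE 0.0719, adjusted p = 1.13e-11), between no call and a lower level. For the other members the direction was shared and the size was not: Thbs1 differed by -1.90 (SE 0.159, adjusted p = 1.14e-07), Thbs2 by -1.82 (SE 0.0786, adjusted p = 7.45e-11), Loxl1 by -0.93 (SE 0.0495, adjusted p = 7.20e-10) and Fbn1 by -0.66 (SE 0.156, adjusted p = 0.00221). Eln (-0.56, adjusted p = 0.00150) fell short of the fold cutoff, and Lox (-0.30, adjusted p = 0.0352), Tnc (-0.23, adjusted p = 0.145) and Fn1 (-0.041, adjusted p = 0.844) passed neither cutoff. The count was 5 to 7 with each library left out in turn. Fbn1 fell short of the fold cutoff without myc-/- replicate 1 (-0.55), without myc-/- replicate 3 (-0.58) and after median centring (-0.58). Eln passed without replicate 1 of myc-/- + MYC siCtrl (-0.65) or replicate 3 of myc-/- + MYC (-0.61), and with quantile normalization its difference was -0.17. The count was 6 without myc-/- replicate 2, where Tnc differed by -0.38 (adjusted p = 1.49e-06) and Fn1 by -0.24 (adjusted p = 4.22e-04). The sets differ in scale, in which arm was transfected and in whatever else set the libraries apart, and these cannot be told apart.

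The second question was whether lowering AHR in MYC-expressing cells changed the members. Both siAHR groups were compared with the same 3 siCtrl libraries, so the 2 comparisons share their controls. With siAHR-2, 0 of the 10 members passed the cutoffs in limma with Benjamini-Hochberg adjustment, against 0.470% of all genes, and for 4 the unadjusted p was under 0.05, as for 40.4% of all genes. With siAHR-5, 0 members passed in the same test, against 2.32% of all genes, and for 7 the unadjusted p was under 0.05, as for 47.8% of all genes. At an adjusted p below 0.05 with no fold cutoff, 3 members were lower with siAHR-2 (Tnc, Sparc and Thbs1), where 29.3% of all genes passed in either direction. With siAHR-5, where 39.2% of all genes passed, there were 4 higher (Eln, Fbn1, Sparc and Thbs1) and 3 lower (Fn1, Tnc and Loxl1), of which Fn1 turned from -0.10 to 0.073 with quantile normalization. The siAHR-2 and siCtrl groups did not overlap for 4 members, all lower, where 43.3% of all genes had no overlap. The siAHR-5 and siCtrl groups did not overlap for 8, 5 higher and 3 lower, where 50.5% of all genes had none. The median log2FC of the members was -0.071 with siAHR-2 and 0.062 with siAHR-5.

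Thbs1 was at 13.78, 13.87 and 13.78 with siCtrl, at 13.30, 13.27 and 13.39 with siAHR-2 and at 13.90, 13.94 and 13.93 with siAHR-5. The siAHR-2 libraries lay below all controls and the siAHR-5 libraries just above them. The log2FC with siAHR-2 was -0.49 (SE 0.0425, adjusted p = 0.00142), 85 from the lowest among all genes, and fell short of the fold cutoff. With siAHR-5 it was 0.12 (SE 0.0303, adjusted p = 0.0303).

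Sparc was at 15.64, 15.67 and 15.67 with siCtrl, at 15.42, 15.42 and 15.46 with siAHR-2 and at 16.07, 16.13 and 16.05 with siAHR-5. The siRNAs thus moved it to opposite sides of the controls, with no overlap on either side. The log2FC was -0.23 (SE 0.0195, adjusted p = 0.00139) with siAHR-2 and 0.42 (SE 0.0266, adjusted p = 4.22e-04) with siAHR-5, both under the fold cutoff.

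Eln was at 9.56, 9.37 and 9.18 with siCtrl, at 9.75, 9.76 and 9.51 with siAHR-2 and at 9.98, 10.17 and 9.85 with siAHR-5. Its control libraries were spread more widely than those of any other member, and the siAHR-2 libraries overlapped them while the siAHR-5 libraries did not. The log2FC with siAHR-5 was 0.63 (SE 0.127, adjusted p = 0.0126), past the fold cutoff and short of the p cutoff. Eln passed with siAHR-5 in a fit of all 18 libraries (adjusted p = 2.09e-05), with robust variance estimates (adjusted p = 0.00178) and when genes averaging under 5 on the log2 scale were left out (adjusted p = 3.87e-04). Its log2FC fell short of the fold cutoff with quantile normalization (0.48) and without replicate 3 of myc-/- + MYC siCtrl (0.53). With siAHR-2 the log2FC was 0.30 (95% confidence interval -0.01 to 0.61, adjusted p = 0.129).

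Tnc was at 13.57, 13.53 and 13.49 with siCtrl, at 13.37, 13.37 and 13.42 with siAHR-2 and at 13.40, 13.31 and 13.39 with siAHR-5. Both siRNA groups lay slightly below the controls, with log2FC values of -0.14 (adjusted p = 0.0146) and -0.16 (adjusted p = 0.0185). Loxl1 was at 14.56, 14.60 and 14.55 with siCtrl, at 14.54, 14.48 and 14.45 with siAHR-2 and at 14.29, 14.45 and 14.28 with siAHR-5. Its log2FC was -0.080 (adjusted p = 0.101) and -0.23 (adjusted p = 0.0182). Fn1 had log2FC values of -0.071 and -0.10, and Fbn1 of 0.0047 with siAHR-2 and 0.16 (adjusted p = 0.0239) with siAHR-5.

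Postn, Thbs2 and Lox passed neither cutoff with either siRNA. Postn was at 7.53, 7.53 and 7.57 with siCtrl, at 7.55, 7.43 and 7.44 with siAHR-2 and at 7.51, 7.64 and 7.64 with siAHR-5. The 95% confidence interval of its log2FC ran from -0.19 to 0.04 with siAHR-2 and from -0.07 to 0.18 with siAHR-5. Thbs2 was at 8.06, 7.88 and 8.04 with siAHR-2 and at 7.96, 8.04 and 8.07 with siAHR-5, across the control values of 8.002, 8.04 and 8.09. For Thbs2 the interval ran from -0.21 to 0.10 with siAHR-2 and from -0.14 to 0.10 with siAHR-5, on the deposited scale, and with quantile normalization its log2FC with siAHR-5 was -0.19. For Lox it ran from -0.15 to 0.07 and from -0.04 to 0.18.

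**Figure D4:**
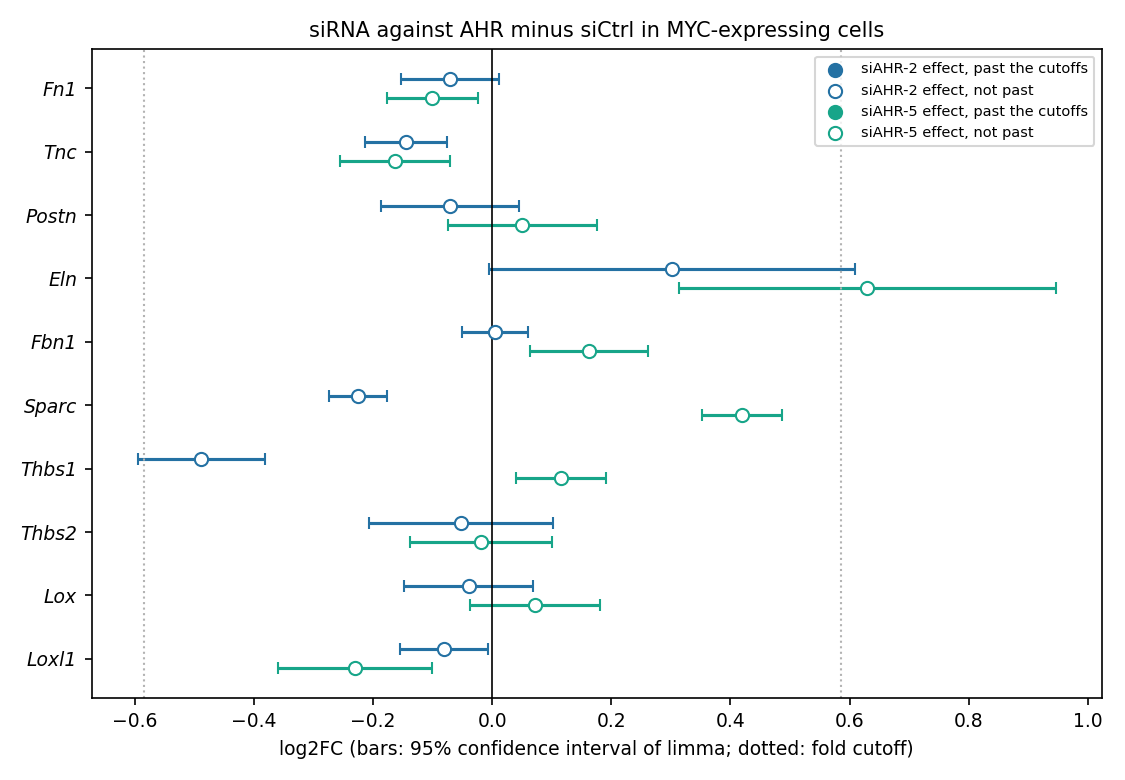
Log2FC of each siRNA against AHR minus siCtrl in MYC-expressing cells (x axis) for the 10 members (y axis), siAHR-2 in blue and siAHR-5 in green. Bars are 95% confidence intervals of limma and dotted lines the fold cutoff. All points are open, since 0 members passed both cutoffs, and Sparc and Thbs1 lie on opposite sides of 0 for the 2 siRNAs.

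The 2 siRNAs were also compared with each other, without the shared controls. Sparc was higher with siAHR-5 than with siAHR-2 by 0.65 (SE 0.0263, adjusted p = 8.22e-05), or 1.56-fold. Thbs1 was higher by 0.60 (SE 0.0355, adjusted p = 2.29e-04), or 1.52-fold. These 2 of the 10 members passed the cutoffs, against 2.18% of all genes, and 0 were lower. Of the cell type markers, 2 of 10 fibroblast genes and 1 of 5 leukocyte genes were also higher with siAHR-5. The summed leukocyte level was 10.7 to 10.9 with siAHR-5 against 10.2 to 10.4 with siAHR-2 and 10.2 to 10.4 with siCtrl. That sum mostly follows Cd14, and the median log2FC of the 5 leukocyte genes between the siRNAs was 0.012. Without overlap, 3 of the 10 fibroblast genes were higher and 2 lower with siAHR-5 than with siAHR-2. Of all 13188 genes, 3593 were higher and 2929 lower without overlap. The summed level of the 10 fibroblast genes was 19.3 in all siAHR-5 libraries, 19.4 in all siAHR-2 libraries and 19.6 to 19.7 with siCtrl. The part of these markers in the result was not tested. Thbs1 sat close to the fold cutoff: its log2FC was 0.58 without replicate 2 of siAHR-2 and 0.58 after centring each library on its median, and it did not pass in either. Lox (0.11, adjusted p = 0.00236) and Fbn1 (0.16, adjusted p = 0.0191) differed by less than the fold cutoff. With no fold cutoff, these 4 members had an adjusted p below 0.05, where 39.1% of all genes did, and for 6 the unadjusted p was under 0.05, as for 46.8% of all genes. For Fn1 the direction turned with the scaling, from -0.030 as deposited to 0.19 (adjusted p = 2.08e-05) after quantile normalization. Eln (0.33, adjusted p = 0.0653), Postn (0.12), Thbs2 (0.034), Tnc (-0.019) and Loxl1 (-0.15, adjusted p = 0.0813) passed neither cutoff between the siRNAs.

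Other genes of the same matrix were taken from 4 lists, drawn up with earlier results of these data known. Of 15 enzymes that cross-link or process matrix proteins, 14 were measured. With MYC, 8 were lower and 0 higher in the set of 6, where 14.3% of all genes were lower and 12.5% higher. In the set of 12, 9 were lower and 0 higher, where 14.7% of all genes were lower and 10.8% higher. There were 6 lower in both, against 8.91% of all genes. In the set of 6 the lowest log2FC belonged to Tgm2 (-2.80), a transglutaminase that cross-links fibronectin, and to the lysyl oxidase Loxl4 (-2.05). Within the set of 12 it belonged to Tll1 (-3.18), a tolloid-like protease, and again to Loxl4 (-2.97). No enzyme passed the cutoffs as higher, although Plod2, a lysyl hydroxylase, had a log2FC of 0.46 (adjusted p = 3.11e-04) in the set of 12, with means of 15.72 with and 15.26 without MYC, and of -0.52 (adjusted p = 4.79e-08) in the set of 6, with means of 13.81 and 14.33. Plod2 was picked after its values were seen, and it was under the fold cutoff in both sets.

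Among elastic fibre and microfibril genes, 13 of 17 were measured. In the set of 6, 5 were lower and 3 higher, against 14.3% and 12.5% of all genes. In the set of 12, 7 were lower and 2 higher, against 14.7% and 10.8% of all genes. Ltbp2 and Fbln5, a microfibril-associated protein and the fibulin that guides elastin onto microfibrils, were lowest in both sets. The log2FC of Ltbp2 was -2.19 and -4.17, and that of Fbln5 was -1.78 and -4.10. Fbn2, the fibrillin of embryonic microfibrils, went the other way. Its log2FC was 4.72 in the set of 6 (means of 10.97 with and 6.25 without MYC) and 3.52 in the set of 12 (means of 12.35 and 8.83). Ltbp4, a latent TGF-beta binding protein of elastic fibres, was higher by 3.24 and 2.23. The members Fbn1 and Eln were not higher in either set.

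The largest list, other adhesive and matricellular glycoproteins, had 38 of 49 genes measured. In the set of 6, 15 were lower and 9 higher, against 14.3% and 12.5% of all genes. In the set of 12, 14 were lower and 5 higher, against 14.7% and 10.8% of all genes. There were 11 lower in both sets, 5 higher in both and 1, Srpx, with opposite calls (log2FC 0.66 with 6 libraries and -1.54 in the larger set). Of all genes, 8.91% were lower in both, 6.87% were higher in both and 0.341% had opposite calls. The lowest were Aebp1 (-3.09) and Igfbp7 (-2.89) in the set of 6 and Wisp1 (-4.75) and Matn4 (-4.39) in the set of 12. The highest were Nov (2.91) and Frem2 (2.42) in the set of 6 and Frem2 (1.70) and Vwa1 (1.58) in the set of 12. Frem2 is a basement membrane adhesion protein, and Wisp1 and Nov are both matricellular proteins of the CCN family.

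Of 22 receptors and surface partners of these proteins, 16 were measured. In the set of 6, 4 were lower and 1 higher, against 14.3% and 12.5% of all genes. In the set of 12, 9 were lower and 0 higher, against 14.7% and 10.8% of all genes. The syndecans, cell surface proteoglycans that bind fibronectin and thrombospondin, did not move alike in the set of 6, where Sdc1 (-1.35) and Sdc4 (-1.33) were lower and Sdc2 (1.09) was higher. In the set of 12 the lowest were the integrin subunit gene Itgb5 (-2.23) and Plaur (-1.68), the urokinase receptor. There were 4 genes lower in both sets, against 8.91% of all genes.

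**Figure D5:**
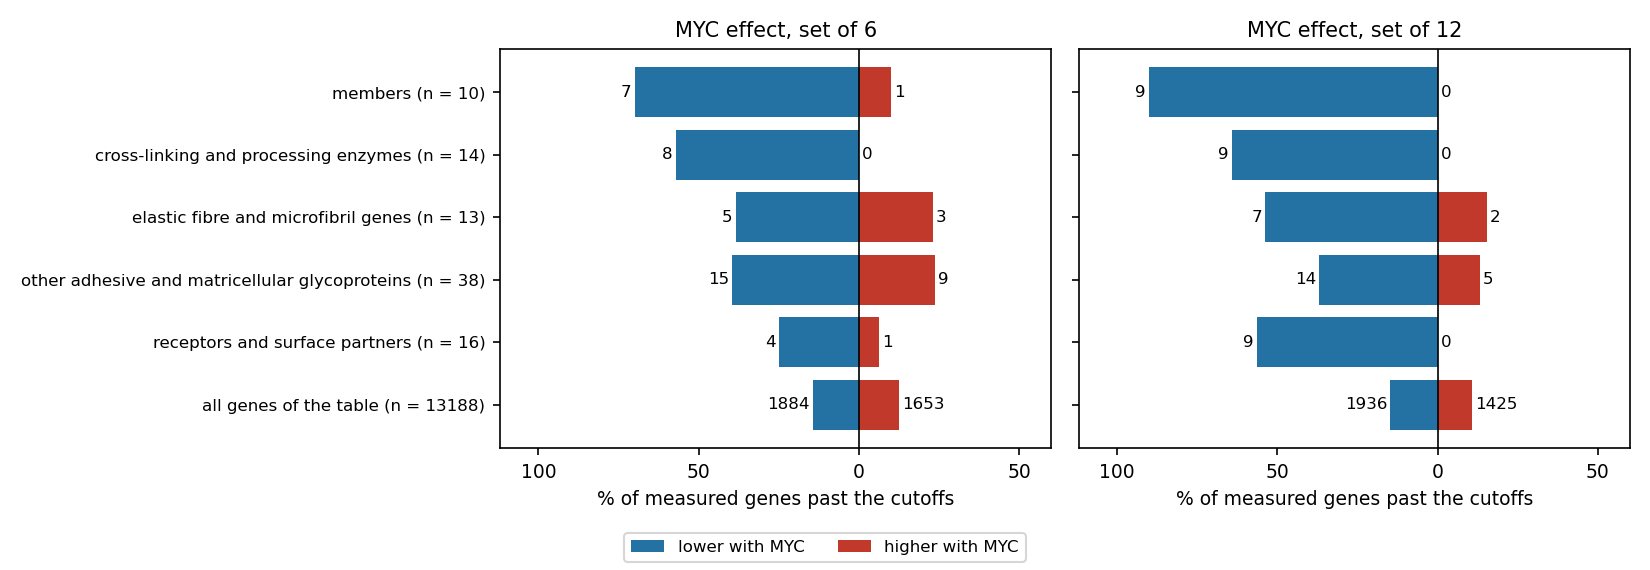
Share of measured genes past the cutoffs (x axis, percent) that were lower (blue, to the left) or higher (red, to the right) with MYC, for the 10 members, the 4 lists and all 13188 genes (y axis), in each set. Numbers at the bars are gene counts. Of the members, 7 and 9 were lower, and of all genes 1884 and 1936.

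With siAHR-2, 2 of the 14 enzymes and 0 genes of the other 3 lists passed, against 0.470% of all genes. With siAHR-5, 1 gene of each list passed, that is 1 of 14 enzymes, 1 of 13 elastic fibre genes, 1 of 38 glycoproteins and 1 of 16 receptors, against 2.32% of all genes. No list gene passed with both siRNAs, so the genes named here were chosen after their values were seen. Loxl2, a lysyl oxidase that acts on collagen IV, was at 14.87, 14.89 and 14.71 with siCtrl, at 13.56, 13.61 and 13.56 with siAHR-2 and at 14.63, 14.64 and 14.61 with siAHR-5. Only the siAHR-2 libraries were far from the controls, with a log2FC of -1.24 (adjusted p = 3.72e-04) that ranked 3 from the lowest of all genes. With siAHR-5 the log2FC of Loxl2 was -0.20 and not called, and the difference of the 2 siRNAs was 1.05 (adjusted p = 3.39e-05). Pcolce, the enhancer of procollagen C-proteinase, was lower with siAHR-2 by a log2FC of -0.71 (adjusted p = 2.37e-04). With siAHR-5 the genes that passed were Ltbp4 (0.95), Itgb8 (0.81), Fndc1 (0.80) and Atp7a (0.59), the last a copper pump that supplies lysyl oxidases.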

How the data were processed

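RNA-seq values of 18 libraries in 6 groups of 3 were used, with groups and replicate numbers taken from the sample labels and each column matched to a sample by name. Per the submitters' processing notes and the methods of the study, the authors aligned reads to rn6 with HISAT2 2.1.0, removed genes under 10 total reads and normalized with DESeq2. The authors deposited log2 values of 13188 genes, 1 column for each library. The submitters call them log CPM, but in linear form they add up to 86.3 to 161 times what CPM allows, so they are not CPM, and read depth is unknown. Whether counting used strand is not given in the sources used here, so a gene and an antisense partner cannot be told apart.

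Groups were compared within each set of libraries by limma 3.58.1 (R 4.3.3), using lmFit with trended eBayes on the deposited log2 values. Tests were 2-sided, with Benjamini-Hochberg adjustment over all 13188 genes, and a fit held no library outside the groups compared. Genes were called at a fold of at least 1.5 and an adjusted p of at most 0.01. The difference of the MYC effects used 12 libraries in 4 groups. Libraries with the same replicate number did not deviate together, so they were not treated as pairs. The fits were tested with known answers before use. Plots were made in matplotlib 3.10.9 (Python 3.11.15).

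All 10 members are named in each comparison. For each list and set, the genes named are the 2 highest and the 2 lowest by log2FC among those past the cutoffs without overlap, and any called with both siRNAs. Exceptions are marked where they stand. The members, lists and cell type markers were chosen with earlier results of these data known. The alternatives were other cutoffs, a joint fit of all libraries, untrended or robust variance estimates, quantile normalization, centring of each library on its median, a minimum mean log2 value of 1 or 5, a replicate block, adding a pseudocount of 1, and each library left out in turn. Proteins, blots and tumour data of the study were not analysed here.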

Additional observations from a re-analysis of the deposited data

Results flagged for a closer look

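The response to MYC differed between the 2 sets of libraries for 6 members in a test of the difference itself, taken as the log2FC of the set of 12 minus that of the set of 6. The values were -2.62 for Postn, -0.66 for Fbn1, -1.98 for Sparc, -1.90 for Thbs1, -1.82 for Thbs2 and -0.93 for Loxl1. The sets also differ in their scale and in which arm was transfected, and these cannot be told apart. Fbn1 is near the fold cutoff and fell short of it after median centring (-0.58) and without replicate 1 (-0.55) or replicate 3 (-0.58) of myc-/-.

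The 2 siRNAs against AHR gave different levels of 2 members when tested against each other. Sparc differed by 0.65 and Thbs1 by 0.60 on the log2 scale, both higher with siAHR-5. The cause was not tested.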

How the results depend on the processing

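The MYC counts of the members stayed within 1.5 times in every alternative, from 6 to 8 lower in the set of 6 and from 8 to 10 lower in the set of 12, and 167 of 170 single log2FC values kept direction and call in each set. The difference of MYC effects passed for 4 to 8 members across the other settings and for 5 to 7 with each library left out. In the siAHR comparisons the counts moved with the cutoffs and with some other settings. At an adjusted p below 0.05 with no fold cutoff, 3 members were lower with siAHR-2, 4 were higher and 3 lower with siAHR-5, and 4 were higher with siAHR-5 than with siAHR-2, where 29.3%, 39.2% and 39.1% of all genes passed in either direction. For siAHR-5, 1 member (Eln) was higher with all 18 libraries in one fit, with robust variance estimates and when genes averaging under 5 were left out. Between the siRNAs, 0 were higher at a log2FC of at least 1 and 1 (Sparc) after median centring. Leaving out each library gave 1 to 2, with 1 without replicate 2 of siAHR-2. No value past the cutoffs of the main fit changed sign. Fn1 with siAHR-5, counted only at the looser cutoff, did so with quantile normalization.

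The values that changed sign lay near 0 in the main fit, but for Fn1 not always in the alternative. With quantile normalization they were Fbn1 (-0.010) and Lox (0.036) with siAHR-2, and Fn1 (0.073) and Postn (-0.087) with siAHR-5. They were also Fn1 (0.19, adjusted p = 2.08e-05 in limma) and Thbs2 (-0.084) between the siRNAs. In the difference of MYC effects it was Fn1 (0.27, adjusted p = 0.0261 in limma). With median centring they were Fbn1 (-0.026) with siAHR-2, Postn (-0.0090) with siAHR-5 and Fn1 (0.044) in the difference. Leaving out each library gave a range for Thbs2 of -0.086 to 0.0037 with siAHR-2, -0.042 to 0.013 with siAHR-5 and -0.023 to 0.067 between the siRNAs. The range was -0.012 to 0.014 for Fbn1 with siAHR-2, -0.038 to 0.012 for Tnc between the siRNAs and -0.24 to 0.065 for Fn1 in the difference. The cause was not tested.

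Over all genes, quantile normalization raised the share of higher calls with MYC from 1653 of 3537 to 1799 of 3483 in the set of 6 and from 1425 of 3361 to 1796 of 3456 in the set of 12. With median centring it was 1492 of 3538 in the set of 6 and 1603 of 3394 in the set of 12. Centring also changed it from 21 of 62 to 15 of 68 with siAHR-2. With siAHR-5 it went from 194 of 306 to 140 of 305, and to 127 of 253 with quantile normalization. In the difference centring changed it from 896 of 2171 to 1148 of 2184. With the replicate number as a block the member counts were the same, 7 lower and 1 higher in the set of 6, 9 lower in the set of 12, 0 with either siRNA, 2 between the siRNAs and 6 in the difference, although 0 rather than 62 of all genes were called with siAHR-2, so that Loxl2 and Pcolce were not. Same-numbered libraries correlated between -0.256 and 0.242 in their deviations, and such a block is not a pairing. Read depth is unknown, so what it limits could not be assessed.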
